A study of Macaca mulatta with 12 samples.

Results

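The average effect of estrogen was measured on transcripts of the dorsal raphe nucleus of ovariectomized female rhesus macaques. All 12 arrays of the series entered, grouped by their treatment labels: 6 from monkeys that carried estrogen were set against 6 from monkeys that did not, and the presence of progesterone was kept as a factor in the model. The arrays with estrogen came from 3 monkeys with estrogen capsules (E1 to E3) and 3 with estrogen and progesterone capsules together (EP1 to EP3). The arrays without estrogen came from 3 monkeys with progesterone alone (P1 to P3) and 3 with placebo (OVX1 to OVX3). Every animal, controls included, had been ovariectomized and wore its implant, hormone or placebo, for 1 month. Each array read a different monkey, so an error holds the variation of animals and of arrays in one. Ages, hormone doses and blood levels were not part of the labels. The question was which transcripts differ with estrogen on average over the states with and without progesterone. Such an average does not require an equal change in both states. The comparison was then repeated on 10 arrays, without E1 and EP1.

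The dorsal raphe nucleus holds most of the serotonin neurons that project to the forebrain. Estrogen acts mainly through the nuclear receptors ESR1 and ESR2, which bind DNA and recruit coactivator proteins, and through the membrane receptor GPER1. In many tissues estrogen raises the progesterone receptor, and progesterone can then act on cells that estrogen has primed, which is why an estrogen effect averaged over both progesterone states is asked for separately from either state alone.

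Values are deposited intensities of probe sets on a human Affymetrix array, read with macaque RNA. Differences in level between probe sets were therefore not read as differences in abundance. Levels of different probe sets did enter the filter on dim signal, the percentiles of ADGRE5, the choice of brightest probe sets and the sums of markers. The array holds 12625 probe sets, and 7535 passed the filter on dim signal. Any 2 arrays had a Spearman correlation of 0.911 to 0.968. The 28S ribosomal RNA control read 841 on E1 and 1354 on EP1, against at most 179 on the other arrays, and the GAPDH 3′ to 5′ ratio was 2.46 and 2.05 on them, against at most 1.46. In the bulk tissue of these samples, fewer cells of a type and less RNA per cell cannot be told apart. Serotonin neuron markers were present: the serotonin transporter SLC6A4 read 220 to 495 with estrogen and 267 to 476 without, and the serotonin neuron transcription factor FEV read 116 to 221 with estrogen and 104 to 289 without. TPH2, the serotonin-synthesizing enzyme of the brain, was not analysed here.

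One gene rose with estrogen after adjustment. ADGRE5, also called CD97, an adhesion receptor known from leukocytes that binds CD55, read 69.9, 73.7 and 93.9 on the estrogen arrays E1 to E3 and 98.9, 93.0 and 86.6 on the combined arrays EP1 to EP3. It read 29.2, 36.3 and 41.9 on the progesterone arrays P1 to P3 and 35.3, 23.6 and 28.5 on the placebo arrays OVX1 to OVX3. All 6 arrays with estrogen lay above all 6 without, and the lowest of them, 69.9, stood above the highest without estrogen, 41.9. Means were 86.0 ± 11.7 with estrogen and 32.5 ± 6.57 without (SD, n = 6 each).

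The log2 change of ADGRE5 was 1.18 ± 0.13 (SE), with an adjusted p of 0.00635 by limma. Log2 changes throughout are of intensity plus an offset of 8.27, which understates the change of dim probe sets. It was 1.16 where estrogen was set against placebo and 1.19 where both hormones were set against progesterone, and the difference between those values had an adjusted p of 0.998. Without E1 and EP1 it was 1.25 ± 0.14, with an adjusted p of 0.0237. A single probe set read ADGRE5, and its mean level stood at percentile 41.5 of all probe sets, just inside the filter that left out the lowest 40%. It passed the filter through the arrays with estrogen, where its mean stood at percentile 51.8, against 30.7 over the arrays without estrogen. When limma's variance was fitted with a trend and robustly, the adjusted p was 0.0748, and when the filter was recomputed without E1 and EP1 the gene stood at percentile 39.6 and was not tested.

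ADGRE5 was the only call, 1 of 7535 probe sets or 0.0133%, and no probe set was called lower. At an unadjusted p under 0.05, 427 probe sets (5.67%) stood out, 223 higher (2.96%) and 204 lower (2.71%) with estrogen, while 376.75 of 7535 would be counted at this threshold with no effect at all. Of all tested probe sets, 3741 (49.6%) had a change above 0. The 6 arrays with estrogen lay apart from the 6 without for 25 probe sets (0.332%), above for 14 (0.186%) and below for 11 (0.146%), judged on the normalized scale. The genes named below, apart from ADGRE5, did not pass the adjusted threshold. They are the 12 highest and 12 lowest placed by a rule on the size of p and on the sign in both progesterone states, and their values are descriptions.

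**Figure D1:**
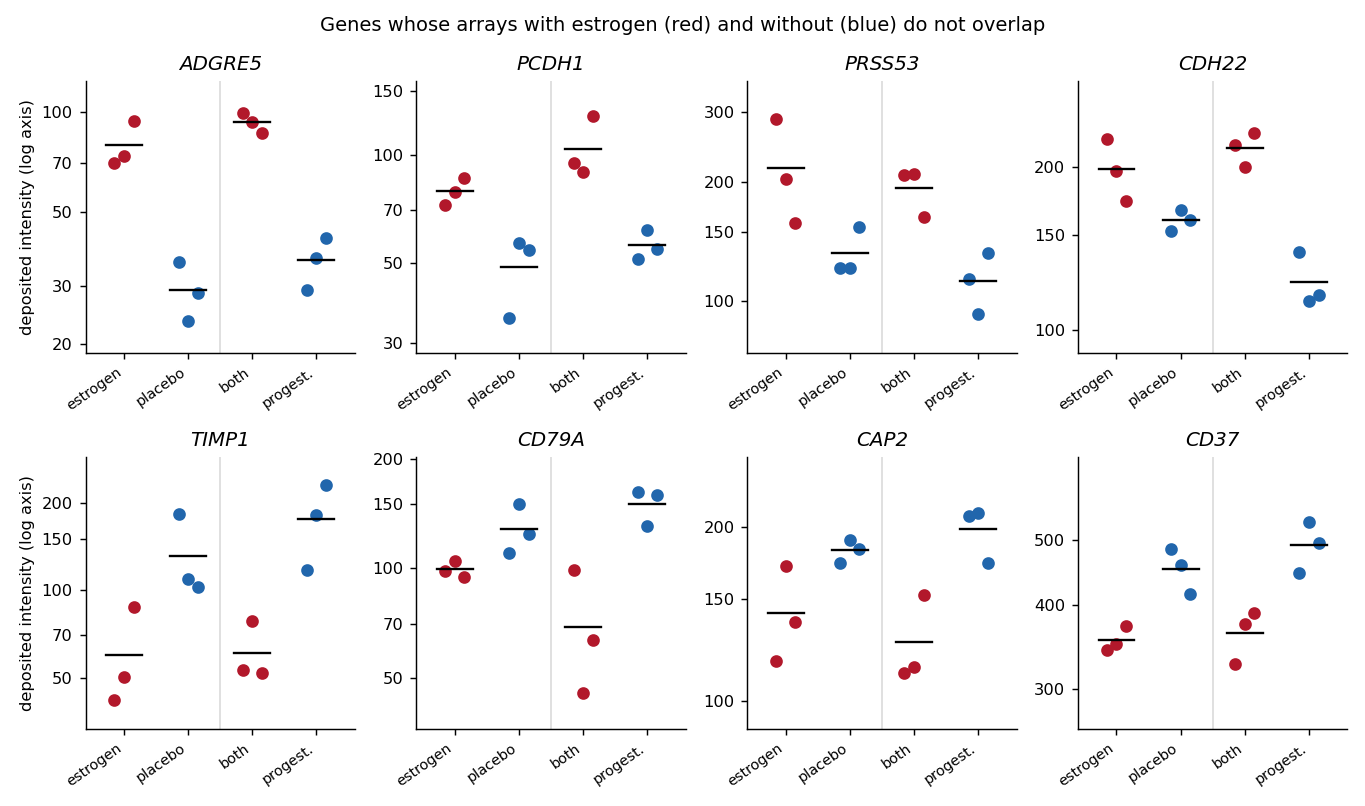
Deposited intensity (log axis) of 8 genes on each of the 12 arrays, with groups in the order estrogen, placebo, both hormones, progesterone; points are single monkeys, black lines are means of 3, and red marks arrays with estrogen. All red points lie on one side of all blue points in each panel, above in the top row and below in the bottom row; ADGRE5 alone passed the adjusted threshold.

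Among cell adhesion and surface genes, PCDH1, a protocadherin, read 72.4 to 128 with estrogen, median 87.7, and 35.2 to 61.7 without, median 54.7. The groups did not overlap, and the log2 change was 0.68 ± 0.14 (adjusted p = 0.624). CDH22, a cadherin, read 173 to 231 with estrogen and 113 to 167 without. These groups did not overlap either, with a log2 change of 0.53 ± 0.12 (adjusted p = 0.667). CNTNAP2, a neurexin family protein that helps to place potassium channels along axons, read 516 to 780 with estrogen and 251 to 527 without, so that the lowest array with estrogen lay inside the range of the others. The log2 change of CNTNAP2 was 0.70 ± 0.18 (adjusted p = 0.772).

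PRSS53, a serine protease, read 158 to 288 with estrogen, median 206, and 92.7 to 154 without, median 122. These ranges were apart by less than 4 units, between E3 at 158 and OVX3 at 154. The log2 change was 0.67 ± 0.15 (adjusted p = 0.667). STARD8 read 65.6 to 178 with estrogen and 44.3 to 76.2 without, and its highest value was on E1. For STARD8 the log2 change was 0.78 ± 0.16 with all arrays and 0.61 ± 0.14 without E1 and EP1.

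For several of the higher genes the estimates in the 2 progesterone states were unequal in size. DMAC2L, a mitochondrial protein related to ATP synthase factor B, read 102, 64.0 and 39.6 with estrogen against 16.7, 16.8 and 22.6 with placebo, and 143, 89.6 and 129 with both hormones against 101, 73.1 and 66.7 with progesterone. Its log2 change was 1.40 without progesterone and 0.50 with it. RECQL4, a DNA helicase, ran the other way, with 0.50 without progesterone and 1.62 with it. DDX17, an RNA helicase that is also a coactivator of estrogen receptors, read 2136, 2318 and 2383 with estrogen against 2171, 1957 and 2116 with placebo, and 2232, 1824 and 2254 with both hormones against 1223, 1099 and 1042 with progesterone. With progesterone the groups did not overlap and its log2 change was 0.95, and without progesterone they overlapped and it was 0.14. The interaction was not called for any of these genes.

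The remaining higher genes were NAPG, a SNARE adaptor of membrane fusion, at 0.71 ± 0.19, TOMM20, a receptor of mitochondrial protein import, at 0.51 ± 0.14, and TCP10L3 at 0.84 ± 0.20. TOMM20 read 138 to 184 with estrogen and 75.8 to 123 without, and its ranges did not overlap as deposited, although they did on the normalized scale. TCP10L3 showed the reverse, with 62.9 to 139 with estrogen and 23.98 to 64.7 without.

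The lower side was led by TIMP1, a secreted inhibitor of matrix metalloproteinases. It read 41.8, 50.3 and 87.5 on E1 to E3 and 53.1, 78.2 and 51.8 on EP1 to EP3, against 117, 182 and 231 on P1 to P3 and 183, 109 and 103 on OVX1 to OVX3. All 6 arrays with estrogen lay below all 6 without, at means of 60.5 ± 18.05 and 154 ± 52.0 (SD, n = 6 each). The log2 change of TIMP1 was -1.25 ± 0.24, with a wider error than that of ADGRE5 and an adjusted p of 0.595 by limma. The offset shrinks the change of the dimmer ADGRE5 more, so the sizes of the 2 changes were not ranked. The change of TIMP1 was -1.07 without progesterone, -1.44 with it, and -1.07 ± 0.26 without E1 and EP1.

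Another matrix gene, COL11A2, a fibrillar collagen chain, read 207 to 386 with estrogen and 366 to 654 without, with a log2 change of -0.67 ± 0.13 (adjusted p = 0.595). The lowest of the arrays without estrogen, OVX1 at 366, lay under EP1 at 386. CALD1, caldesmon, an actin and myosin binding protein, had a log2 change of -0.66 ± 0.17, and CAP2, an actin regulator, one of -0.52 ± 0.14. CAP2 read 112 to 171 with estrogen and 173 to 212 without, groups that did not overlap but came within 2 units of each other.

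A pair of lymphocyte genes stood lower. CD79A, a chain of the B cell receptor complex, read 98.2, 105 and 94.6 with estrogen and 98.6, 45.2 and 63.3 with both hormones, against 162, 131 and 159 with progesterone and 110, 150 and 125 with placebo. CD37, a leukocyte tetraspanin, read 327 to 389 with estrogen, median 361, and 416 to 532 without, median 472. Neither gene's groups overlapped, with log2 changes of -0.73 ± 0.18 and -0.39 ± 0.11 (adjusted p = 0.772 for each). Markers of microglia, the resident leukocytes of the brain, are given with the cell type lists.

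Among the rest, NSL1, a kinetochore subunit, read 751 to 996 with estrogen and 985 to 1394 without. PCCA, a subunit of propionyl-CoA carboxylase, read 66.2, 60.2 and 51.6 with estrogen against 91.2, 56.2 and 86.3 with placebo, and 19.6, 18.1 and 39.7 with both hormones against 96.6, 77.7 and 67.2 with progesterone. The log2 change of PCCA was -0.36 without progesterone and -1.47 with it. BTRC, the substrate receptor of a ubiquitin ligase, had -0.25 without progesterone and -1.42 with it. ELAVL3, a neuronal RNA-binding protein, read 529 to 941 with estrogen and 805 to 1578 without, HHLA1 read 92.8 to 132 with estrogen and 141 to 262 without, and SRPX read 156 to 309 with estrogen and 212 to 462 without.

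Probe sets of the same gene did not always move together. Of the 24 genes, 17 had no other tested probe set. Of the 7 that did, COL11A2 and HHLA1 were lower in all their tested probe sets, at -0.21 and -0.80 for the other COL11A2 probe sets and -0.58 for the other of HHLA1. The other 5 genes had at least 1 probe set in the opposite direction. PCDH1 was at -0.08 and DDX17 at -0.14 on their other probe sets, and DMAC2L at -0.08 and 0.16. CAP2 was at 0.10, -0.02 and 0.12 on its other probe sets, and BTRC at 0.65 and -0.45.

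Of the 25 probe sets whose groups did not overlap, 24 carried 1 gene symbol, 14 higher and 10 lower. Beyond the genes above, 4 higher ones were picked after their values were seen. ARR3, cone arrestin, read 783 to 1756 with estrogen and 200 to 733 without (log2 change 1.06 ± 0.31). SORL1, a sorting receptor for the amyloid precursor protein, read 1172 to 1724 with estrogen and 479 to 1167 without (0.65 ± 0.21). HABP4 and the zinc finger factor ZNF148 had 0.39 ± 0.11 and 0.32 ± 0.10. The estimate of greatest size among probe sets with 1 symbol, HSPA2 at 1.36 ± 0.91, was not among them. It read 105, 4.66 and 134 with estrogen against 164, 202 and 97.5 with placebo, and 112, 373 and 166 with both hormones against 3.72, 2.62 and 3.76 with progesterone. The estrogen change was -1.38 without progesterone, where E2 alone stood far below the placebo arrays, and 4.10 with it.

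The estrogen comparison within each progesterone state used separate arrays, which shared only the normalization and the estimate of spread. Estrogen against placebo had no calls by limma, and 238 probe sets (3.16%) at an unadjusted p under 0.05, 122 higher (1.62%) and 116 lower (1.54%). Both hormones against progesterone had 1 call (0.0133%) and 581 probe sets (7.71%) at an unadjusted p under 0.05, 306 higher (4.06%) and 275 lower (3.65%). The call was LPCAT4, an acyltransferase of phospholipid remodelling, which read 84.1, 154 and 164 with both hormones against 15.9, 21.7 and 19.7 with progesterone. It read 91.4, 131 and 121 with estrogen against 157, 103 and 104 with placebo. The estrogen change of LPCAT4 was 2.31 ± 0.28 (adjusted p = 0.0259) with progesterone and -0.09 without it. The call was lost with the lowest 60% of probe sets left out, and in 6 of the 12 fits that left out 1 array (OVX2, E3, EP2, EP3, P2 or P3). Averaged over the states it was 1.11 ± 0.39 (adjusted p = 0.786).

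Across the 7535 probe sets the log2 changes in the 2 states were almost unrelated, with a Pearson r of 0.02 and a Spearman coefficient of 0.04, given as a description because probe sets are not independent. Without E1 and EP1 these were 0.04 and 0.07. The change had the same sign in both states for 3939 probe sets (52.3%). Of the 122 probe sets higher with estrogen against placebo, 70 (57.4%) were also above 0 in the other state, and of the 116 lower ones 68 (58.6%) were below 0 there. In the reverse choice, 164 of 306 (53.6%) and 145 of 275 (52.7%) kept their sign in the comparison with placebo. The SD of the changes over probe sets was 0.29 without progesterone, 0.36 with it and 0.24 for the average, beside a median standard error of 0.17 for that average.

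**Figure D2:**
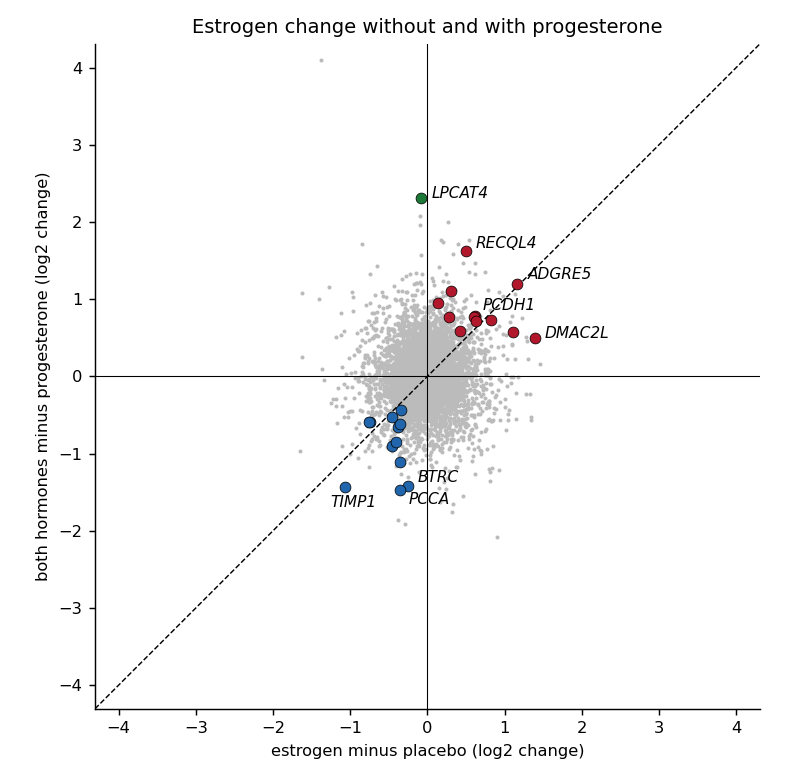
Log2 change of each tested probe set for estrogen minus placebo (horizontal) and both hormones minus progesterone (vertical); coloured points are the genes named for the average effect, red higher and blue lower, the green point is LPCAT4, and the dashed line marks equal changes. The cloud has no slope (r = 0.02), ADGRE5 lies on the line at 1.16 and 1.19, and LPCAT4 lies near 0 on the horizontal axis.

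An unadjusted p under 0.05 in both states was found for 32 probe sets (0.425%). The arrays with and without estrogen lay apart in both states in the same direction for 58 probe sets (0.77%) and in opposite directions for 26 (0.345%). In 15 of the 32 probe sets (0.199% of all) the direction was the same, 9 higher and 6 lower, and in 17 it was opposite. The 15 held 12 with 1 gene symbol: ADGRE5, PCDH1, PRSS53, STARD8, CNTNAP2 and BASP1 on the higher side, and TIMP1, COL11A2, NSL1, CALD1, CD37 and SRPX on the lower side. BASP1, a membrane protein of growth cones that was not placed by the rule, read 253, 149 and 128 with estrogen and 226, 125 and 122 with both hormones, against 94.7, 80.2 and 89.9 with progesterone and 68.4, 125 and 125 with placebo. Its log2 changes were 0.67 without progesterone and 0.70 with it. E1 and EP1 were its highest arrays, and the average change was 0.68 ± 0.20 with them and 0.42 ± 0.15 without.

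Of the 17 opposite probe sets, 16 carried 1 symbol, and 2 picked after their values were seen show the pattern. CCNA2, cyclin A2, averaged 82.7 ± 21.1 with estrogen against 34.8 ± 13.8 with placebo, and 48.9 ± 5.14 with both hormones against 73.2 ± 6.86 with progesterone (SD, n = 3 each). POU3F2, a neural POU-domain transcription factor, averaged 89.3 ± 5.30 with estrogen against 129 ± 10.1 with placebo, and 111 ± 9.97 with both hormones against 70.8 ± 12.1 with progesterone. Averaged over the states, the log2 changes were 0.24 ± 0.28 and 0.02 ± 0.19. The difference of the estrogen effect between states had no calls by limma over all probe sets, and 376 (4.99%) at an unadjusted p under 0.05. Both genes had an adjusted p of 0.585 for it.

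E1 and EP1 made up 2 of the 6 arrays with estrogen, and on 1298 tested probe sets (17.2%) both of them lay outside the range of the other 10 arrays on the same side. Without them, 1 probe set was called (0.0133%), again ADGRE5, and 590 (7.83%) passed the unadjusted threshold, 303 of them higher (4.02%) and 287 lower (3.81%). The 427 probe sets of the full comparison all kept their sign. The 2 fits shared 214 probe sets in the same direction, 50.1% of the 427 and 36.3% of the 590, and they also share 10 arrays, so the repeat is no separate evidence. The groups of 4 and 6 arrays did not overlap for 116 probe sets (1.54%), 58 above and 58 below (0.77% each). With no effect at all, 4 arrays lie apart from 6 more often than 6 from 6. This count therefore cannot be set against the 25 of all arrays. All 24 genes of the rule kept their sign and an unadjusted p under 0.05.

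**Figure D3:**
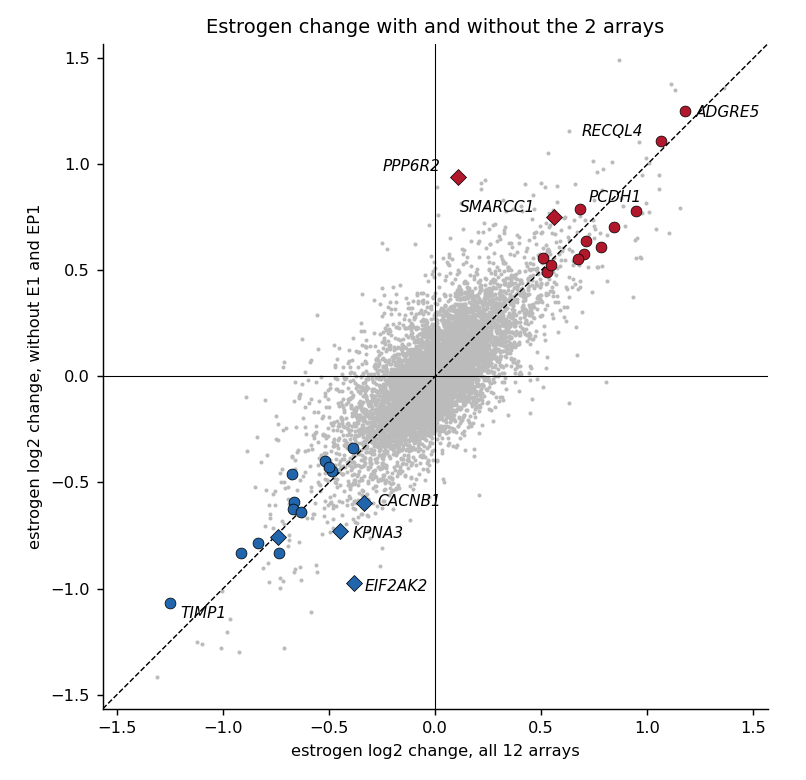
Estrogen log2 change of each tested probe set with all 12 arrays (horizontal) and without E1 and EP1 (vertical); circles are genes named from all arrays, diamonds genes named only from the repeat, red higher and blue lower, and the dashed line marks equal values. ADGRE5 lies at 1.18 and 1.25 and TIMP1 at -1.25 and -1.07, while PPP6R2 (0.11 and 0.94) and EIF2AK2 (-0.38 and -0.98) lie farthest from the line among the labelled genes.

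The 5 genes of smallest p in each direction without E1 and EP1 included ADGRE5, RECQL4, PCDH1 and BTRC, already given, and 6 others, none past the adjusted threshold apart from ADGRE5. PPP6R2, a regulatory subunit of protein phosphatase 6, read 41.6 on E1 and 46.3 on EP1 but 239, 264, 265 and 243 on the other 4 arrays with estrogen, against 79.95 to 189 without. Its log2 change was 0.11 ± 0.49 with all arrays and 0.94 ± 0.18 without both (adjusted p = 0.421). EIF2AK2, the double-stranded RNA-activated kinase PKR, was its mirror image, at 2323 on E1 and 2230 on EP1 but 588 to 874 on the other arrays with estrogen, against 833 to 2099 without. Its log2 change was -0.38 ± 0.37 with all arrays and -0.98 ± 0.18 without both (adjusted p = 0.36).

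KPNA3, a nuclear import receptor, read 225 on E1 and 175 on EP1, against 79.4, 93.5, 115 and 141 on the others with estrogen and 133 to 227 without. Its log2 change was -0.45 ± 0.21 with all arrays and -0.73 ± 0.13 without both. CACNB1, a calcium channel subunit, read 1160 on EP1 and 475 to 638 on the other arrays with estrogen, against 674 to 945 without, with -0.33 ± 0.19 from all arrays and -0.59 ± 0.12 without both. SMARCC1, a chromatin remodelling subunit, was at 0.75 ± 0.16 and MYOD1, a muscle transcription factor, at -0.76 ± 0.14 without both arrays. With all arrays they were at 0.56 ± 0.27 and -0.74 ± 0.25. The all-array change of SMARCC1 was -0.10 without progesterone and 1.22 with it. Another tested probe set of SMARCC1 went the opposite way, at -0.14 with all arrays. Other probe sets of EIF2AK2 and CACNB1 were at -0.14 and -0.36, the same direction.

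**Figure D4:**
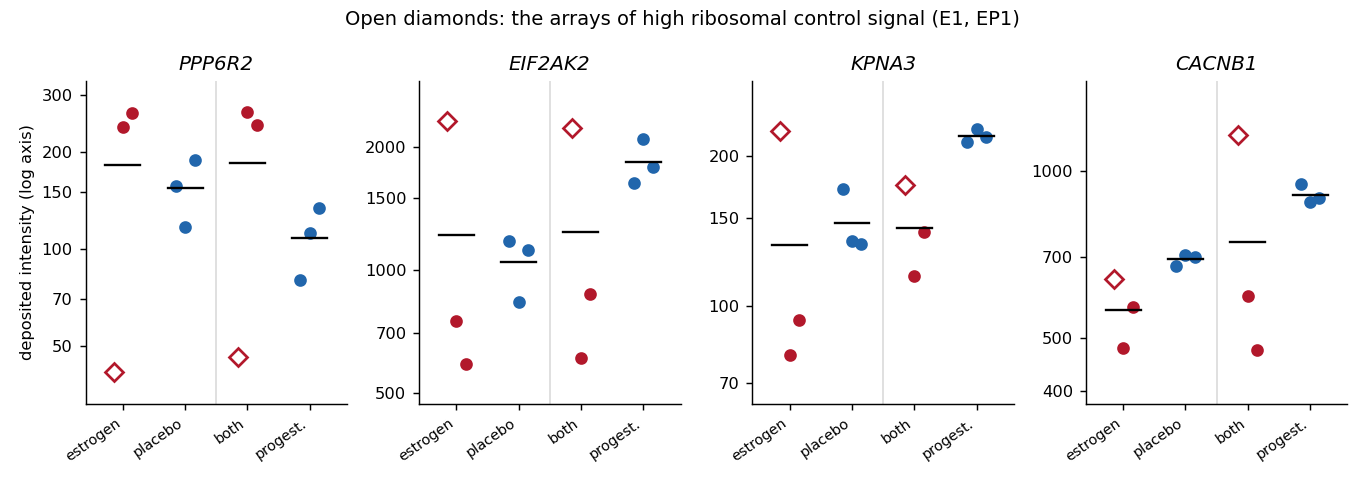
Deposited intensity (log axis) of 4 genes on each of the 12 arrays, in the order estrogen, placebo, both hormones, progesterone; open diamonds are E1 and EP1, filled points the other monkeys, and black lines means of 3. For PPP6R2 both diamonds lie below every other array, at 41.6 and 46.3, and for EIF2AK2 both lie above, at 2323 and 2230.

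Lists of genes were described by counts and medians over genes, each taken at its brightest probe set. Of 5499 genes, 161 (2.93%) were higher and 141 (2.56%) lower at an unadjusted p under 0.05, 2749 (50%) had a change above 0, and the median change was 0.00. The call rate was 0.0182% of genes, ADGRE5 alone, and no member of any list was called by limma. The counts below are at an unadjusted p under 0.05 unless stated. Of 46 list members that met it, all kept their sign without E1 and EP1 and 21 still met it.

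In the steroid receptor list, which also holds the estrogen-related receptors ESRRA and ESRRG, 8 genes were tested and 1 was higher. GPER1, the membrane estrogen receptor, read 61.6 to 125 with estrogen and 39.0 to 88.2 without, overlapping ranges with a log2 change of 0.42 ± 0.17 (unadjusted p = 0.0251, adjusted p = 0.814). Without E1 and EP1 it was at 0.30 ± 0.17 (unadjusted p = 0.11), and none of the 8 was higher. ESR1 had 2 tested probe sets at -0.15 ± 0.18 and 0.06 ± 0.29. The first read 278 on E1 and 248 on EP1 but 137 to 170 on the other arrays with estrogen, against 157 to 235 without, and was at -0.41 ± 0.12 without both arrays (unadjusted p = 0.00542, adjusted p = 0.496). ESR2 had 2 at 0.06 ± 0.13 and 0.03 ± 0.28. The probe set of the progesterone receptor PGR, a textbook estrogen target, was too dim to test, at 1.05 to 6.87 with estrogen and 0.63 to 10.5 without. Of 19 receptor cofactors and chaperones, 2 were higher, DDX17 and SAFB, a scaffold protein that represses estrogen receptor activity, which read 65.4 to 211 with estrogen and 46.2 to 113 without (log2 change 0.62 ± 0.27). The highest value of SAFB was on E1. Without E1 and EP1 SAFB was at 0.42 ± 0.28 (unadjusted p = 0.158 by limma), and 1 of the 19 genes, DDX17, was higher.

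Of 35 genes listed as estrogen-responsive in other tissues, 14 had a change above 0 and none was higher or lower, with a median of -0.03. Their changes ran between -0.50 and 0.23. Of 11 genes of estrogen synthesis and conversion, 10 had a change above 0, but 3 of 11 did without E1 and EP1, with medians of 0.05 and -0.06.

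In the serotonin system, 24 genes were tested, 16 had a change above 0, and the median was 0.09. SLC6A4 had 0.09 ± 0.19, FEV 0.22 ± 0.25, the vesicular transporter SLC18A2 0.11 ± 0.20, and the breakdown enzyme MAOA 0.21 ± 0.24 and 0.17 ± 0.20 on its 2 probe sets. The receptor gene HTR6 was higher, at 195 to 557 with estrogen, median 235, and 117 to 257 without, median 169 (log2 change 0.62 ± 0.25). Its highest values were on E1 at 557 and EP1 at 389, and the log2 change was 0.26 ± 0.17 without them. HTR3A, a serotonin-gated channel, was lower, at 24.2 to 104 with estrogen and 48.9 to 104 without (-0.60 ± 0.28), and had -0.35 ± 0.26 without E1 and EP1. TPH1 was too dim to test.

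Among 18 neuropeptide genes, 1 was lower: CARTPT, the precursor of the CART peptide, read 13.6 to 80.4 with estrogen and 41.0 to 474 without, with a log2 change of -1.31 ± 0.59. Its high values were on OVX1 at 295 and P2 at 474, while the other 4 arrays without estrogen read 41.0 to 51.9, inside the range of the arrays with estrogen. Of 14 GABA genes, the transporter SLC6A11 was higher (0.58 ± 0.22), and the breakdown enzyme ALDH5A1 (-0.51 ± 0.21) and the receptor subunit GABRR2 (-0.66 ± 0.30) were lower. None of the 3 had an unadjusted p under 0.05 without E1 and EP1. ADRA1B, an adrenergic receptor, was the 1 higher gene of 12 in the catecholamine list. It read 63.4 to 302 with estrogen and 34.1 to 166 without (1.16 ± 0.38). Its highest values were on EP1 at 302 and E1 at 187. Without them ADRA1B was at 0.79 ± 0.38 (unadjusted p = 0.0643 by limma), and no gene of its list was higher. None of 23 glutamate genes and none of 22 synaptic vesicle genes stood out in either direction with all arrays. Without E1 and EP1, 3 of the glutamate genes and 2 of the synaptic vesicle genes were higher, and none was lower.

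Of 27 genes for G-protein subunits and RGS proteins, 3 were lower and none higher. They were RGS19, RGS4 and RGS10, and RGS proteins speed the shut-off of G-protein signals. RGS19 read 91.0 to 147 with estrogen and 142 to 180 without (log2 change -0.42 ± 0.12). RGS4 read 108 to 290 with estrogen and 162 to 466 without (-0.73 ± 0.26), and RGS10 read 68.3 to 117 with estrogen and 108 to 173 without (-0.47 ± 0.18). Their ranges overlapped. The list's median was 0.06, and 15 of 27 genes had a change above 0. Without E1 and EP1, RGS10 was at -0.36 ± 0.19 (unadjusted p = 0.0787 by limma), while RGS19 and RGS4 stayed lower. In that repeat 3 genes of the list were lower and none higher. Among 27 growth factor genes, CNTFR (-0.67 ± 0.22) and ERBB4 (-0.28 ± 0.12) were lower and PDGFRB (0.42 ± 0.18) higher. Without E1 and EP1 their unadjusted p by limma was 0.0562, 0.111 and 0.107, in that order.

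In the extracellular matrix and protease list, 5 of 30 genes were lower and none higher, beside a background of 2.56% lower. They were TIMP1, COL11A2, the protease inhibitor SERPINE2 (-0.37 ± 0.12), the plasminogen activator PLAU (-0.49 ± 0.18) and the laminin chain LAMB2 (-0.29 ± 0.13). SERPINE2 read 1313 to 1681 with estrogen and 1656 to 2440 without, and PLAU read 42.2 to 107 with estrogen and 91.5 to 111 without, both with some overlap. The median over all 30 was -0.02, 13 had a change above 0, and changes ran up to 0.53. Without E1 and EP1, 4 of these 5 genes stayed lower, and LAMB2 was at -0.23 (unadjusted p = 0.126).

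Of 31 genes of axon growth and guidance, 24 had a change above 0, with a median of 0.06, and 2 were higher, DPYSL4 (0.26 ± 0.11) and the adhesion molecule L1CAM (0.54 ± 0.23). L1CAM read 646 to 1131 with estrogen and 306 to 940 without. Without E1 and EP1, 22 of 31 had a change above 0 and 5 were higher. Of 18 immediate early genes, whose transcripts follow neuronal activity, 3 had a change above 0 and the median was -0.10. One, the phosphatase gene DUSP1, was lower, at 146 to 250 with estrogen and 193 to 377 without (-0.44 ± 0.18).

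Of 26 genes of interferon response and antigen presentation, 3 were lower and 1 higher, with a median of -0.12. That median was 0.0114 without progesterone and -0.215 with it. B2M, the light chain of class I molecules, read 392 to 769 with estrogen and 606 to 1426 without (-0.64 ± 0.20). IFITM2 (-0.76 ± 0.32) and the interferon receptor IFNAR1 (-0.43 ± 0.18) were the others, and the interferon regulatory factor IRF2 was higher (0.53 ± 0.17). IRF2 was highest on E1 at 439 and EP1 at 406, and without them was at 0.34 ± 0.16 (unadjusted p = 0.055). In the same repeat IFITM2 was at -0.61 ± 0.37 and IFNAR1 at -0.32 ± 0.17 (unadjusted p = 0.133 and 0.0828 by limma). B2M was at -0.78 ± 0.22 there (unadjusted p = 0.00492), and 4 genes of the list were lower and none higher. Microglia markers stood on the same side as B2M: all 7 tested had a change below 0, with a median of -0.16, and 1 of them was lower at the unadjusted threshold. Without E1 and EP1 the median was also -0.16, but 1 marker had a change above 0, and 1 was lower at that threshold. CSF1R, the receptor microglia need to survive, read 103 to 147 with estrogen and 132 to 238 without (-0.52 ± 0.17). None of the 7 was at 0, and their summed intensity was 1128 to 1355 with estrogen and 1242 to 1803 without. Their part in the lower values of CD37, CD79A and B2M was not tested. ADGRE5 was higher on the same arrays.

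Of the energy and housekeeping lists, 50 genes of oxidative phosphorylation had a median of -0.02 with 1 higher and 1 lower, 46 ribosomal protein genes had 0.03 with 1 higher, and 33 proteasome genes had -0.02 with none. Of 21 antioxidant genes 5 had a change above 0, with none higher or lower. CCT4, a chaperonin subunit, was lower (-0.55 ± 0.16) and DNAJC7, a co-chaperone, higher (0.48 ± 0.17) among 27 heat shock genes. PRNP, the prion protein, was lower (-0.51 ± 0.17), as was BIRC2, an inhibitor of apoptosis (-0.79 ± 0.28). BIRC2 read 30.1 on E1 and 66.8 on EP1 but 80.2 to 121 on the other arrays with estrogen, against 117 to 165 without, and was at -0.37 ± 0.13 without both arrays.

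**Figure D5:**
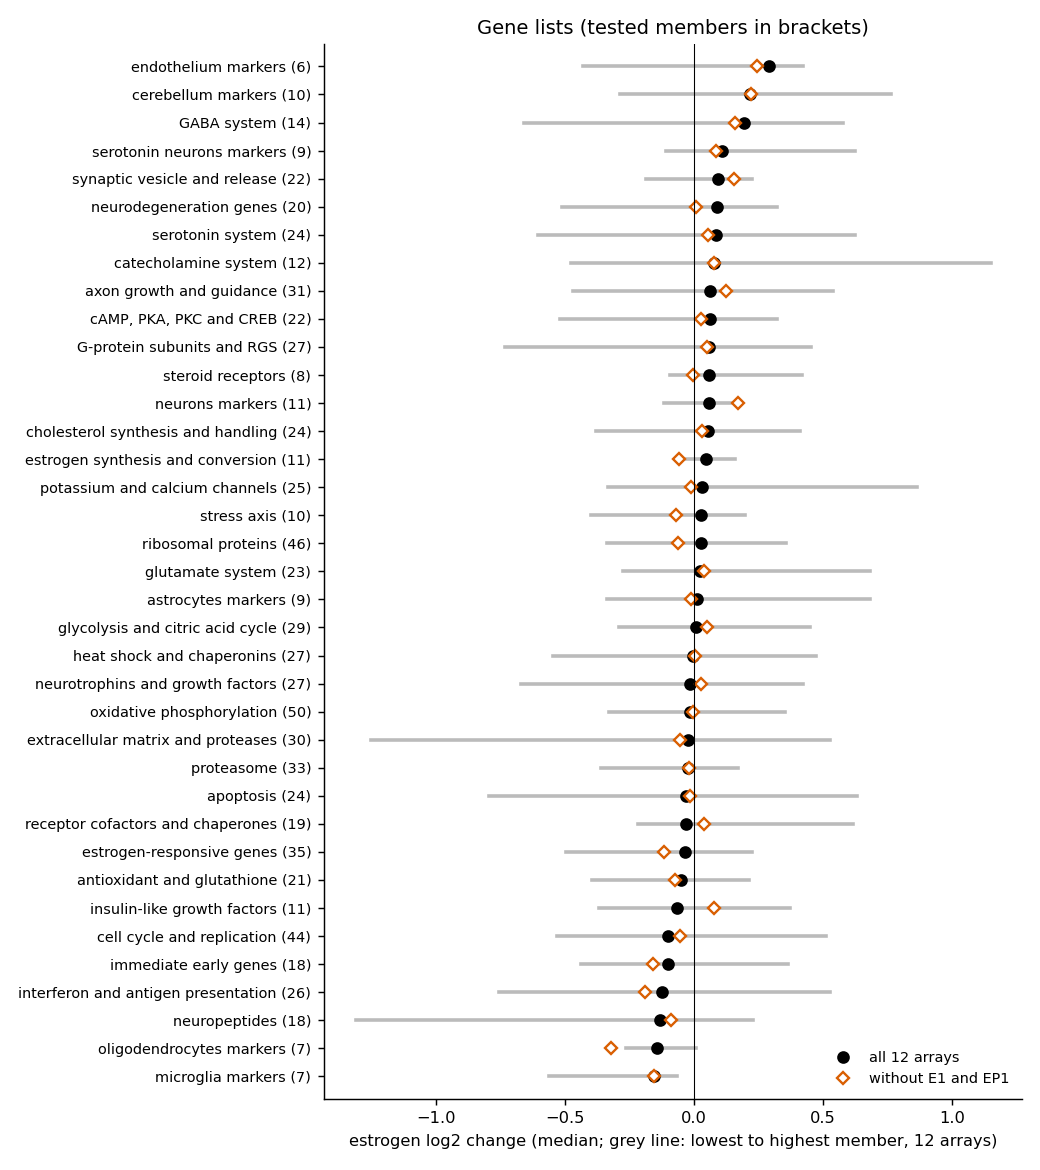
Median estrogen log2 change of each gene list with at least 5 tested genes (black points, all 12 arrays; open orange diamonds, without E1 and EP1), with grey lines from the lowest to the highest member. Medians lie between -0.16 for microglia markers and 0.29 for endothelium markers with all arrays, and single members reach farther, such as TIMP1 at -1.25.

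Markers of other cell types and of tissue next to the nucleus were read for all arrays. Summed neuron markers were 32470 to 43830 with estrogen and 32700 to 41070 without, and summed astrocyte markers 13950 to 16240 with estrogen and 12370 to 16570 without. Oligodendrocyte markers summed to 13670 to 21500 with estrogen and 17620 to 25850 without, and 1 of 7 had a change above 0 (median -0.14, and -0.32 without E1 and EP1). Of 10 cerebellar markers, 8 had a change above 0 and 2 were higher, NEUROD2 (0.52 ± 0.17) and ZIC1 (0.76 ± 0.32), with summed levels of 4270 to 6301 with estrogen and 4273 to 5600 without. Of 6 endothelial markers 4 had a change above 0, and none was higher or lower. The part of these differences in the gene values above was not tested.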

How the data were processed

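Total RNA of the dorsal raphe nucleus was biotin-labelled and hybridized to a human Affymetrix array, 1 array per monkey, per the labels' protocols. The values used are the deposited linear intensities of 12625 probe sets on 12 arrays, which the authors had scaled, from the values, to a 2% trimmed mean of 200.072 to 200.084. Array medians were 74.2 to 87.1. How probes were summarised is not given in the sources used here. Detection calls did not enter. Precision is limited by 3 arrays in each of the 4 treatment groups.

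Titles of the progesterone arrays say progesterone but carry combined-group codes, so the source names P1 to P3 set their group. Gene symbols came from the platform's probe annotation: 10943 probe sets had 1 symbol, 545 several and 1070 none, besides 67 array controls, which were left out. Intensities were taken as log2(intensity + 8.27), the offset being the pooled 10th percentile, and quantile normalized. The lowest 40% by mean, 5023 probe sets, were left out. An additive model of estrogen and progesterone was fitted with limma 3.58.1 (R 4.3.3; lmFit, eBayes, 2-sided, 9 residual degrees of freedom), with Benjamini-Hochberg adjustment over 7535 probe sets at 0.05. The same probe sets were kept when arrays were left out. Effects within each progesterone state and their difference came from a fit of 4 group means. Single array controls were compared by exact permutation within progesterone states. The fit was tested on simulated data with known changes.

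Genes named are those past the threshold, up to 12 in each direction. Remaining places went to genes with an unadjusted p under 0.01, smallest first, whose sign matched in both states. Added were the 5 of smallest p in each direction without E1 and EP1, up to 4 members of each list, and receptor and serotonin genes. The 40 lists hold 1103 genes, each at its brightest probe set. The members of the comparison, the lists and the tests were chosen with earlier results of these data known.

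Replicate numbers were not treated as pairs. Same-numbered arrays of different groups had correlated deviations of -0.216 to 0.407 (median 0.0118, 5 of 18 over 0.1). For different-numbered arrays of different groups these were -0.351 to 0.208 (median -0.00733, 6 of 36 over 0.1). No label ties a number to a shared animal or day. Alternatives covered normalization, offset, filter, model, variance fit, array weights, the block, a 28S covariate and each array left out.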

Additional observations from a re-analysis of the deposited data

Results flagged for a closer look

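The 28S ribosomal RNA control read 841.4 on E1 and 1354 on EP1, and the 18S control at its 3′ end read 438.6 and 486.1 on these arrays, against at most 179 and 116.2 on the other 10 arrays. Between all arrays with estrogen and all without, the log2 difference was 0.917 for 28S (exact permutation p = 0.5, adjusted 0.681) and -0.216 for 18S (exact permutation p = 0.855). The GAPDH 3′ to 5′ ratio was 1.20 to 2.46 with estrogen and 0.892 to 1.46 without, a log2 difference of 0.442 (exact permutation p = 0.03, adjusted over 5 controls 0.15, where 0.005 is the smallest p possible).

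In 60 groups of 6 arrays, tested over the named genes, 2 had an array far from the others, and chance marks about 1 group in 20. DDX17 read 1824 on EP2 against 2136 to 2383 on the other arrays with estrogen. CACNB1 read 1160 on EP1 against 475 to 638 on the other arrays with estrogen.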

How the results depend on the processing

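ADGRE5 was higher with estrogen under all 24 alternatives that tested it, by 0.83 to 1.37 on the log2 scale, with adjusted p of 0.00106 to 0.0748, and passed in 23 of them. The count of called probe sets was 0 with a variance trend and robust fitting, 0 with the lowest 60% left out and 0 without E1 and EP1 when the filter was recomputed on the 10 remaining arrays, an alternative chosen after seeing the data. In the last 2, ADGRE5 stood under the filter and was not tested. It was called without each array in turn, in fits that kept the probe sets chosen from all 12 arrays. Those fits therefore do not test whether ADGRE5 passes the filter. With the replicate block 1 probe set was called, with 458 at an unadjusted p under 0.05. Unadjusted counts were 328 to 569 without single arrays and 683 of 12558 with no filter. For both hormones against progesterone, 3 were called with the larger offset, 6 with no filter, 0 with the lowest 60% left out, 2 with a trend and robust fitting, 12 with array weights and 0 to 3 without single arrays. The call was lost without OVX2, E3, EP2, EP3, P2 or P3. Of 1773 values for 72 genes or probe sets, 4 reversed, counting a sign change only where 1 value lay over 1 SE from 0. ESR2 (main 0.03) was at -0.245 with array weights, and between -0.2106 (without OVX1) and 0.1328 without single arrays. ESR1 (main 0.06) was at -0.2528 with weights, and between -0.2266 (without OVX1) and 0.1649. The cause was not tested. Of 1000 list medians, 13 moved by more than the spread.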
